A study of Mus musculus with 12 samples.

Results

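Tcim, Mfsd2a, Sra1, Fbxo31, Rbm14, Chd9, St3gal5, Dvl2 and Lsm3 are 9 genes whose RNA was higher in the livers of curcumin-treated mice than in control livers with the same chemical injury. They were chosen by that difference: taken by symbol from well-expressed genes that stood out as most steadily higher with curcumin in these libraries, so their level against control is what chose them and is given below as a description, with no test. They are 9 of the 56923 rows of the count table, and all 9 were among the 16839 genes that passed the filter on low counts. The 12 liver libraries are labelled as biological replicates of wild-type C57BL/6J mice, aged 6 weeks at the outset. Every mouse was injected intraperitoneally with 200 µL of 7.5% carbon tetrachloride (CCl4) in olive oil, 2 times a week for 6 weeks, a treatment that kills hepatocytes and scars the liver. The 3 control libraries are from mice with CCl4 alone, and groups of 3 libraries are from mice that also received curcumin, a plant polyphenol from turmeric, each day by gavage for 2 weeks at 25 (low), 50 (medium) or 100 mg/kg (high). No uninjured liver was analysed here, the labels do not say whether controls were gavaged without curcumin, and mice were kept 3 to a cage, so cage and group may coincide.

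The 9 genes have separate known roles. Tcim encodes a small protein that binds Chibby, an inhibitor of β-catenin, and Dvl2 encodes a Dishevelled protein that relays Wnt signals from the receptor to β-catenin, the pathway that sets the gene programme of hepatocytes around the central vein. Mfsd2a is a membrane transporter of lysophosphatidylcholine carrying polyunsaturated fatty acids, whose RNA is induced in liver by fasting, and St3gal5 makes ganglioside GM3, the parent lipid of most other gangliosides. Sra1 (steroid receptor RNA activator), Rbm14 and Chd9 take part in transcription with nuclear receptors, Fbxo31 picks proteins for ubiquitination, and Lsm3 is a subunit of the rings that bind U6 snRNA and decaying mRNA.

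RefSeq promoter sequences (build GRCm38.p6, 250 bases before to 50 after the start site) were used for 7 of the 9 genes, Mfsd2a, Fbxo31, Rbm14, Chd9 with 2 promoters, St3gal5, Dvl2 and Lsm3. The promoters below belong to the lipid transporter, to a gene with one of the larger folds against control and to the one gene whose level with TMM scaling was lower at the high than at the low dose with an interval clear of 0. Capitals mark matches, on either strand, to AGGTCA (a nuclear receptor half-site), CACGTG (an E-box) and GGGCGG (a GC box). Mfsd2a is at chr4:122961139-122961438 on the minus strand, Chd9 at chr8:90828585-90828884 and Dvl2 at chr11:70000342-70000641, both on the plus strand.
Mfsd2a: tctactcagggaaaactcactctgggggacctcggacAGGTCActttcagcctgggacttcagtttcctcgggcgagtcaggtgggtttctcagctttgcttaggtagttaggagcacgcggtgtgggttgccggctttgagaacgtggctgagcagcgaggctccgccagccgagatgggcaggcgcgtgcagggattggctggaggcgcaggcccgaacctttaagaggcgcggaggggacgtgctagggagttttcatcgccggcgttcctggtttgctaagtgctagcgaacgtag
Chd9: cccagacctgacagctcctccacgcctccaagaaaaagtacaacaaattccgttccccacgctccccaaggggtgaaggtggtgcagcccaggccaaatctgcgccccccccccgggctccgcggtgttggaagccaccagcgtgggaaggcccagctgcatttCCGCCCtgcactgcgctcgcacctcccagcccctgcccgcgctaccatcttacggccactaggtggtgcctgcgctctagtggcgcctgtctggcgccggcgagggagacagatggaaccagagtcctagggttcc
Dvl2: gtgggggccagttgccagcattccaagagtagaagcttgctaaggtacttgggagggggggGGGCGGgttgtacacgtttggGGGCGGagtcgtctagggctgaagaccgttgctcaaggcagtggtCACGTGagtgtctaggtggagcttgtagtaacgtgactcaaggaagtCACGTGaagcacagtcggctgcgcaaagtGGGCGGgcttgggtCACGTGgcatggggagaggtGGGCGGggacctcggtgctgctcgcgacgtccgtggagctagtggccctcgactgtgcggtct

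The Mfsd2a promoter held AGGTCA once, its first base 213 bases before the start site, and 16.3% of the 32851 promoters in the table held that motif. The Dvl2 promoter held CACGTG 3 times, at 123, 76 and 33 bases before the start site. That E-box was in 7.15% of all promoters, and 29 of them (0.0883%) held it 3 times or more. GGGCGG was found 4 times in Dvl2, 4 times in Fbxo31, 3 times in Lsm3 with 2 of the matches overlapping, 2 times in St3gal5 and 1 time in the printed Chd9 promoter. Of all promoters 35.7% had at least 1 match and 10.7% had 3 or more. The windows of Dvl2, Fbxo31 and Lsm3 were 62%, 69.7% and 65.3% G or C, beside a median of 52.7% over all promoters. The letters TGACGTCA (CRE), GTAAACA (FOXO) and CTTTGAT (TCF/LEF) were in none of the members' 300-base windows, and in 1.79%, 3.65% and 3.73% of all promoters. Rbm14 and the second Chd9 promoter held none of the motifs searched. These matches describe letters only and were not tested against the expression values.

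Levels are given as CPM, the usual counts-per-million share of a library, corrected by TMM, edgeR's adjustment for a few genes taking many reads. Library totals ran from 36015134 to 70376474 counts, and 3 counts corresponded to 0.0426 to 0.0833 CPM before the TMM factor. The lowest count of any of the 9 genes in any library was 86, for Lsm3 in a control. Mitochondrially encoded genes took 30.3% to 64.7% of the counts, with group means of 61.2% ± 2.81 (SD, n = 3) in control and 56.9% ± 12.1, 54.7% ± 6.01 and 45.7% ± 17.5 at the low, medium and high dose. The hepatocyte markers tested, among them Alb, Apoa1 and Hnf4a, were above 0 in all 12 libraries. In whole liver, fewer cells of a type and less RNA per cell cannot be told apart.

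Every curcumin library exceeded every control for 7 of the 9 genes, all but St3gal5 and Dvl2. Because such separation helped to choose them, it is set beside the background only as a description: 179 of 16839 genes (1.06%) were so separated upwards. By dose, 8 of the 9 were separated at the low dose (background 7.41%), 9 at the medium dose (7.61%) and 8 at the high dose (6.47%). Downwards, 202 of 16839 genes were separated for the doses together, and 1071, 1075 and 1098 at the low, medium and high dose. On plain library totals 3 of the 9 genes, Tcim, Mfsd2a and Chd9, had every curcumin library above every control. That scaling moved the median log2 fold of all genes for the doses together from 0.01 to 0.42. Over all genes, 0 of 16839 (0%) passed an adjusted p of 0.05 in edgeR's quasi-likelihood test of the doses together against control, and 1577 had an unadjusted p under 0.05. DESeq2 called 165 genes and limma voom with library weights 97 in the same comparison. Against control one dose at a time, edgeR likewise called 0 genes (0%), with 1008, 940 and 2152 at an unadjusted p under 0.05 for the low, medium and high dose.

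**Figure D1:**
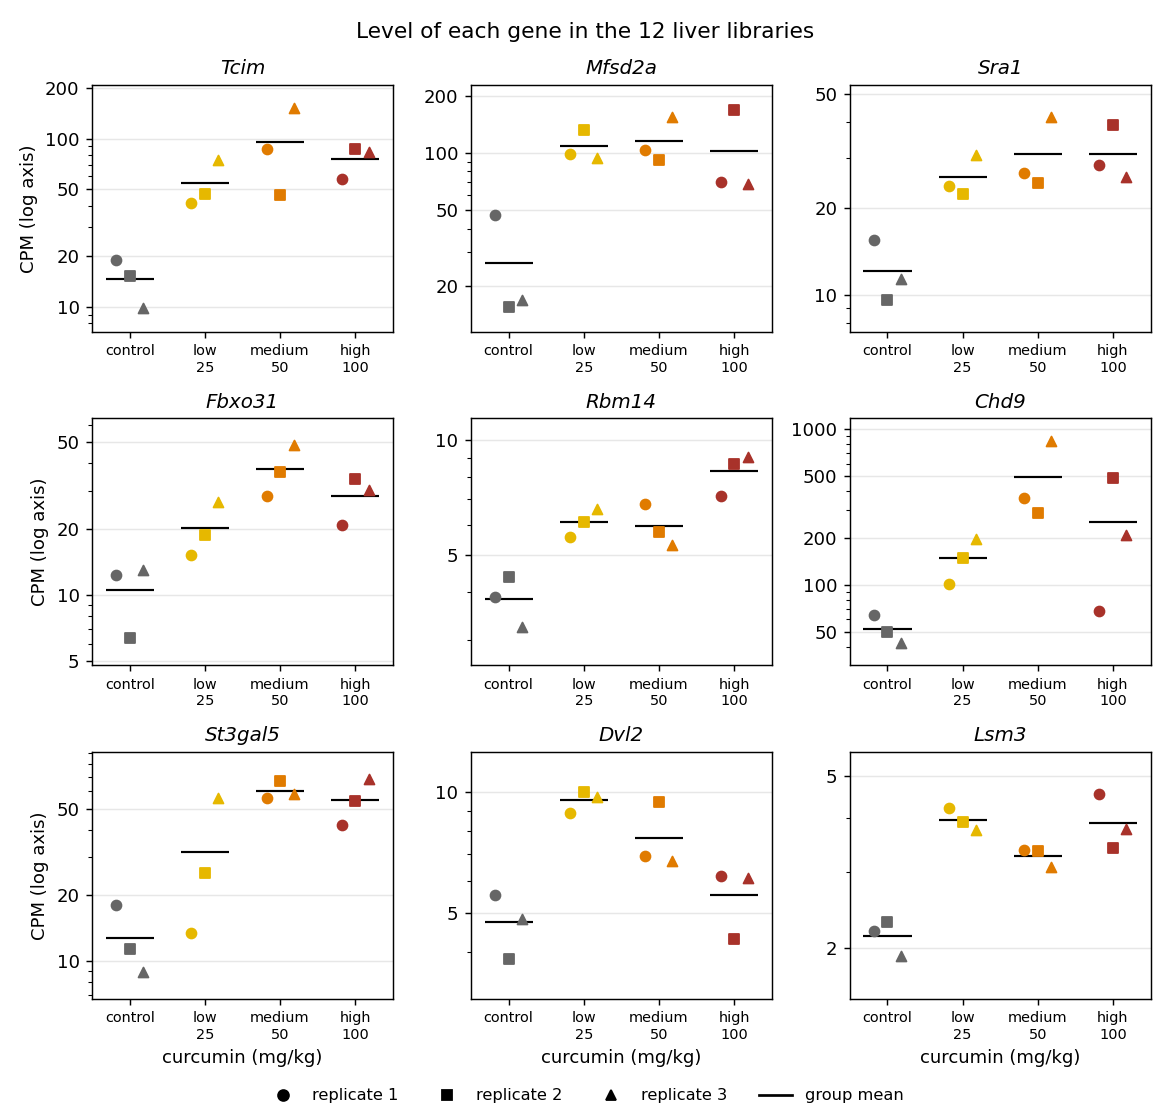
Level of each of the 9 genes in the 12 liver libraries, in CPM on a log axis, by group and dose, with symbols for replicates and a bar for the group mean (n = 3). The control libraries lie below every curcumin library for 7 genes, and overlap with 1 curcumin library each for St3gal5 (low replicate 1) and Dvl2 (high replicate 2).

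Tcim, the partner of Chibby, had a level of 18.9, 15.4 and 9.81 CPM in control replicates 1 to 3, 41.6, 47.0 and 74.5 at the low dose, 87.0, 46.6 and 152 at the medium dose and 57.3, 87.4 and 84.0 at the high dose. All 9 curcumin libraries lay above the highest control, and medium replicate 3 was the highest of the 12. Group means were 14.7 ± 4.59 CPM (SD, n = 3) in control, 54.4 ± 17.6 at the low, 95.1 ± 53.1 at the medium and 76.2 ± 16.5 at the high dose. The log2 fold against control, on which the gene was chosen, was 2.32 ± 0.41 (SE) for the doses together, that is 4.99-fold, and 1.89 ± 0.44, 2.69 ± 0.45 and 2.37 ± 0.45 for the low, medium and high dose. Between doses, a contrast the choice did not rank on although it took every dose being higher into account, medium exceeded low by a log2 of 0.81 (95% interval -0.13 to 1.74) and high differed from medium by -0.32 (-1.25 to 0.61), and edgeR's F test among the 3 doses gave an adjusted p of 0.986. Exons of the antisense gene Gm26714 cover 18.7% of the Tcim exon bases, and Gm26714 had 125 counts over the 12 libraries. Its level was 0 to 0.0453 CPM in control, 0.0279 to 0.143 at the low, 0.107 to 0.436 at the medium and 0.222 to 0.305 at the high dose, far below that of Tcim but likewise higher with the medium and high dose. At these doses 7.61% and 6.47% of all genes lay wholly above control. Without strand, reads of the pair cannot be told apart.

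Dvl2, the Wnt relay protein, had a level of 5.56, 3.85 and 4.84 CPM in control replicates 1 to 3, 8.89, 10.0 and 9.73 at the low dose, 6.95, 9.42 and 6.74 at the medium dose and 6.19, 4.32 and 6.13 at the high dose. Low and medium libraries lay above all controls, while high replicate 2 fell between control replicates 2 and 3. Group means were 4.75 ± 0.858 CPM (SD, n = 3) in control, 9.54 ± 0.577 at the low, 7.71 ± 1.49 at the medium and 5.55 ± 1.06 at the high dose. Against control its log2 fold was 1.01 ± 0.23 (SE) at the low dose, 0.70 ± 0.23 at the medium dose and 0.23 ± 0.23 at the high dose. It was the gene of the 9 whose high-dose level was nearest control. That high-dose value moved to 0.10 without control replicate 2, to 0.38 without high replicate 2, and to -0.14 without the 3 libraries of lowest mitochondrial share (low 3, high 1 and high 3). The high dose was below the low dose by a log2 of -0.78 ± 0.23 (95% interval -1.28 to -0.28), a difference with an unadjusted p of 0.00502 and an adjusted p of 0.993 in edgeR's test, so it did not pass. On plain library totals the log2 folds of Dvl2 were 1.115 at the low and 1.00 at the high dose (all-gene medians 0.11 and 0.71), a difference of -0.12. Dvl2 had the smallest unadjusted p of the 9 genes in the F test among doses (0.0166, adjusted 0.986), a test in which edgeR called 0 of 16839 genes (0%), 614 had an unadjusted p under 0.05, DESeq2 called 16 and limma voom 8. Exons of Acadvl, a fatty acid oxidation gene on the opposite strand, overlap 18.3% of the Dvl2 exon bases, and whether the counting used strand is not stated in the labels or the processing notes. Acadvl had a log2 fold of 0.43 ± 0.30 for the doses together, and its high-dose libraries (51.0 to 95.6 CPM) lay above its controls (34.3 to 48.4). At that dose 6.47% of all genes were so separated.

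The other Dishevelled genes had folds near 0. Dvl1, which had far more counts, had a log2 fold of -0.27 ± 0.29 (SE) for the doses together and Dvl3 one of -0.04 ± 0.20. Cby1, the Chibby that Tcim binds, had 0.60 ± 0.27 at a mean of 1.03 CPM in control. None of these 3 had every curcumin library above every control, and none passed edgeR's test after adjustment, though the high-dose libraries of Cby1 (1.46 to 1.76 CPM) lay above its controls (0.736 to 1.26). At the high dose 6.47% of all genes were so separated. Of 33 other genes of Wnt signal transduction, 16 were above and 17 below control with a median log2 fold of -0.003, beside 50.9% of all genes above control and an all-gene median of 0.01. Of 10 pericentral Wnt target genes 8 were above control, with a median of 0.52. In these lists 0 genes passed, and unadjusted p under 0.05 was reached by 1 higher and 4 lower Wnt genes and 1 lower pericentral gene.

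Mfsd2a, the lysophosphatidylcholine transporter, had a level of 47.0, 15.5 and 16.8 CPM in control replicates 1 to 3, 98.8, 132 and 93.9 at the low dose, 103, 91.6 and 154 at the medium dose and 70.2, 169 and 68.7 at the high dose. Control replicate 1 stood well above the other controls, yet below the lowest curcumin library, high replicate 3. Group means were 26.4 ± 17.8 CPM (SD, n = 3) in control, 108 ± 20.99 at the low, 116 ± 33.1 at the medium and 103 ± 57.2 at the high dose. The log2 fold against control was 2.04 ± 0.45 (SE) for the doses together, 4.12-fold, with 2.04 ± 0.50, 2.14 ± 0.51 and 1.96 ± 0.50 for low, medium and high. Leaving out control replicate 1 moved the value for the doses together to 2.75, and leaving out control replicate 2 moved it to 1.77. The doses lay closest together here: high minus low was -0.08 (95% interval -1.13 to 0.97) and medium minus low 0.10 (-0.95 to 1.15), with an adjusted p of 0.991 in edgeR's F test among doses. Its relative Mfsd2b, a sphingolipid transporter, had a log2 fold of 0.19 ± 0.38 and overlapping groups. Of 26 other tested genes that handle lysophospholipids and polyunsaturated fatty acids, 19 were above control (median 0.36), and of 27 genes of the fasting and PPARα response 22 were (median 0.38). At an unadjusted p under 0.05, 1 gene of the first list and 4 of the second were higher, and 0 passed after adjustment. Ppara itself had 0.20. Over all genes 50.9% were above control (median 0.01), and all 11 tested hepatocyte markers were (median 0.87).

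St3gal5, the GM3 synthase, had a level of 18.01, 11.3 and 8.89 CPM in control replicates 1 to 3, 13.4, 25.2 and 56.0 at the low dose, 55.7, 67.1 and 58.1 at the medium dose and 42.1, 54.1 and 68.5 at the high dose. Low replicate 1 lay inside the control range, below control replicate 1, and the medium and high libraries were all above the controls. Group means were 12.8 ± 4.72 CPM (SD, n = 3) in control, 31.5 ± 22.0 at the low, 60.3 ± 6.03 at the medium and 54.9 ± 13.2 at the high dose. Set against control, its log2 fold was 1.31 ± 0.46 (SE) at the low dose, 2.24 ± 0.47 at the medium and 2.11 ± 0.47 at the high dose. Without low replicate 3, the library of least mitochondrial share in its group, the low-dose value was 0.59. Its low-dose value thus leaned on 1 library, while the medium-dose libraries lay close together. Medium exceeded low by a log2 of 0.93 with an interval from -0.05 to 1.91, and the F test among doses gave an adjusted p of 0.986. The related sialyltransferases St3gal1, St3gal2, St3gal3, St3gal4 and St3gal6 had log2 folds of -0.25, -0.05, 0.08, 0.44 and -0.21 for the doses together, none with every curcumin library above every control. By dose, the low and medium libraries of St3gal4 (36.2 to 37.7 and 43.8 to 47.7 CPM) lay above its controls (26.6 to 30.8), and the low libraries of St3gal1 (15.6 to 16.4) lay below its controls (19.1 to 27.5). Over all genes 7.41% and 7.61% were separated upwards at the low and medium dose, and 1071 of 16839 downwards at the low dose. Of 22 other genes of ganglioside synthesis and turnover, 12 were above control, with a median of 0.05, 1 higher at an unadjusted p under 0.05 and 0 after adjustment.

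Sra1, whose locus gives both a coactivating RNA and a protein, had a level of 15.5, 9.61 and 11.3 CPM in control replicates 1 to 3, 24.0, 22.4 and 30.6 at the low dose, 26.7, 24.4 and 41.7 at the medium dose and 28.4, 38.9 and 25.8 at the high dose. Its curcumin libraries all lay above the highest control and within a narrow span, with medium replicate 3 and high replicate 2 on top. Group means were 12.1 ± 3.01 CPM (SD, n = 3) in control, 25.7 ± 4.35 at the low, 30.9 ± 9.39 at the medium and 31.0 ± 6.96 at the high dose. The log2 fold against control was 1.26 ± 0.26 (SE) for the doses together, 2.40-fold. High differed from medium by 0.00 (95% interval -0.63 to 0.64), the smallest of the 27 dose differences computed for the 9 genes. Slirp, which binds the Sra1 RNA, had a log2 fold of 0.68 ± 0.39 with overlapping groups.

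Rbm14, a coactivator and paraspeckle protein, had a level of 3.90, 4.40 and 3.25 CPM in control replicates 1 to 3, 5.58, 6.12 and 6.62 at the low dose, 6.83, 5.74 and 5.31 at the medium dose and 7.14, 8.69 and 9.03 at the high dose. With TMM scaling the curcumin libraries were all above the controls, and the 3 high-dose libraries were above every other library. On plain library totals neither held. There high replicate 2 had 370 of 67695784 counts, and low replicate 3 had 600 of 60338975. Group means were 3.85 ± 0.572 CPM (SD, n = 3) in control, 6.10 ± 0.520 at the low, 5.96 ± 0.784 at the medium and 8.29 ± 1.01 at the high dose. Compared with control the log2 fold was 0.67 ± 0.21 (SE), 0.63 ± 0.21 and 1.10 ± 0.21 for low, medium and high. High exceeded medium by 0.48 ± 0.20 (95% interval 0.03 to 0.92), with an adjusted p of 0.857 in edgeR's test, so it did not pass. The same-strand gene Gm21992 shares 18.6% of the Rbm14 exon bases, so reads could be split between them, and it had a log2 fold of -0.43 ± 0.35. The neighbouring relatives Rbm4 and Rbm4b had 0.19 and 0.25, and of 17 paraspeckle and RBM genes 8 were above control with a median of -0.04 and 0 at an unadjusted p under 0.05.

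Chd9, a chromatin remodeller known as a partner of PPARα, had a level of 63.4, 49.8 and 42.3 CPM in control replicates 1 to 3, 100.4, 149 and 197 at the low dose, 358, 288 and 840.2 at the medium dose and 67.7, 482 and 208 at the high dose. In the medium and high groups it spread more widely than the other members, with coefficients of variation of 60.7% and 83.4%: medium replicate 3 was the highest and high replicate 1 the lowest curcumin library, only just above control replicate 1. Group means were 51.9 ± 10.7 CPM (SD, n = 3) in control, 149 ± 48.4 at the low, 495 ± 301 at the medium and 253 ± 211 at the high dose. Its log2 fold over control was 1.52 ± 0.63 (SE) at the low, 3.26 ± 0.67 at the medium and 2.28 ± 0.64 at the high dose. Without high replicate 2 the high-dose value was 1.41, without the 3 libraries of lowest mitochondrial share it was 3.21, and without medium replicate 3 the medium-dose value was 2.64. Without high replicate 1 the high-dose value was 2.73, and without medium replicate 2 the medium-dose value was 3.53. The medium and high values thus moved with single libraries, both the highest and the lowest for Chd9 in their group. Medium exceeded low by a log2 of 1.73 ± 0.63 with an interval of 0.36 to 3.11, unadjusted p 0.0173 and adjusted p 1 by edgeR. Of 8 other tested CHD remodellers 2 were above control, with a median of -0.20, and 1, Chd1l, named here after its value was seen, was higher at an unadjusted p under 0.05 (log2 fold 0.73 ± 0.28, adjusted p 0.453 by edgeR). The named relatives Chd1, Chd2, Chd3, Chd4, Chd6 and Chd8 had log2 folds from -0.30 to -0.15 and Chd7 had 0.29, none with every curcumin library above every control. At the low dose Chd7 (9.03 to 13.3 CPM) lay above its controls (6.92 to 8.79). Chd1 (11.6 to 13.8 against 14.7 to 14.8) and Chd2 (11.2 to 12.8 against 13.6 to 18.4) lay below theirs at that dose. Chd1 did so at the medium dose too (11.9 to 14.3 CPM). Over all genes 7.41% were separated upwards at the low dose. Downwards, 1071 of 16839 were separated at the low and 1075 at the medium dose. Of 24 nuclear receptor cofactors 8 were above control, with a median of -0.11 and 0 at an unadjusted p under 0.05.

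Fbxo31, the substrate-binding subunit of an SCF ubiquitin ligase, had a level of 12.4, 6.36 and 13.0 CPM in control replicates 1 to 3, 15.3, 18.7 and 26.6 at the low dose, 28.2, 36.4 and 48.2 at the medium dose and 20.9, 33.99 and 30.1 at the high dose. Low replicate 1 was only just above control replicate 3, and the medium dose held the highest libraries. Group means were 10.6 ± 3.67 CPM (SD, n = 3) in control, 20.2 ± 5.82 at the low, 37.6 ± 10.0 at the medium and 28.3 ± 6.73 at the high dose. Fold changes against control were a log2 of 0.93 ± 0.34 (SE), 1.83 ± 0.35 and 1.42 ± 0.35 for low, medium and high. Medium exceeded low by 0.90 ± 0.34 (95% interval 0.15 to 1.64), with an unadjusted p of 0.0222 and an adjusted p of 1 by edgeR. RNA of 2 of its reported protein targets, Ccnd1 (cyclin D1) and Mdm2, had log2 folds of -0.09 and -0.39 for the doses together. The low-dose libraries of Mdm2 (13.4 to 16.1 CPM) lay below its controls (17.5 to 22.0), as was so for 1071 of 16839 genes. Of 4 reported targets 1 was above control, and of 39 SCF and F-box genes 22 were, with a median of 0.03. In either list 0 genes had an unadjusted p under 0.05.

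Lsm3, the ring subunit, had a level of 2.19, 2.30 and 1.92 CPM in control replicates 1 to 3, 4.21, 3.91 and 3.76 at the low dose, 3.38, 3.35 and 3.08 at the medium dose and 4.54, 3.41 and 3.77 at the high dose. The control libraries lay close together, as did the medium-dose libraries, and all curcumin libraries were above the controls. Group means were 2.13 ± 0.195 CPM (SD, n = 3) in control, 3.96 ± 0.2301 at the low, 3.27 ± 0.162 at the medium and 3.90 ± 0.578 at the high dose. The log2 fold against control was 0.79 ± 0.18 (SE) for the doses together, 1.73-fold, with 0.89, 0.61 and 0.87 for low, medium and high. High minus low was -0.02 (95% interval -0.47 to 0.43). The other ring subunits were not separated: Lsm1, Lsm2, Lsm4, Lsm5, Lsm6, Lsm7 and Lsm8 had log2 folds of 0.25, 0.55, 0.25, 0.14, 0.24, 0.01 and -0.08, that is 6 of 7 above control. Of 15 genes of U6 snRNP assembly and mRNA decapping 7 were above control, with a median of -0.01. No gene of either list had an unadjusted p under 0.05.

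**Figure D2:**
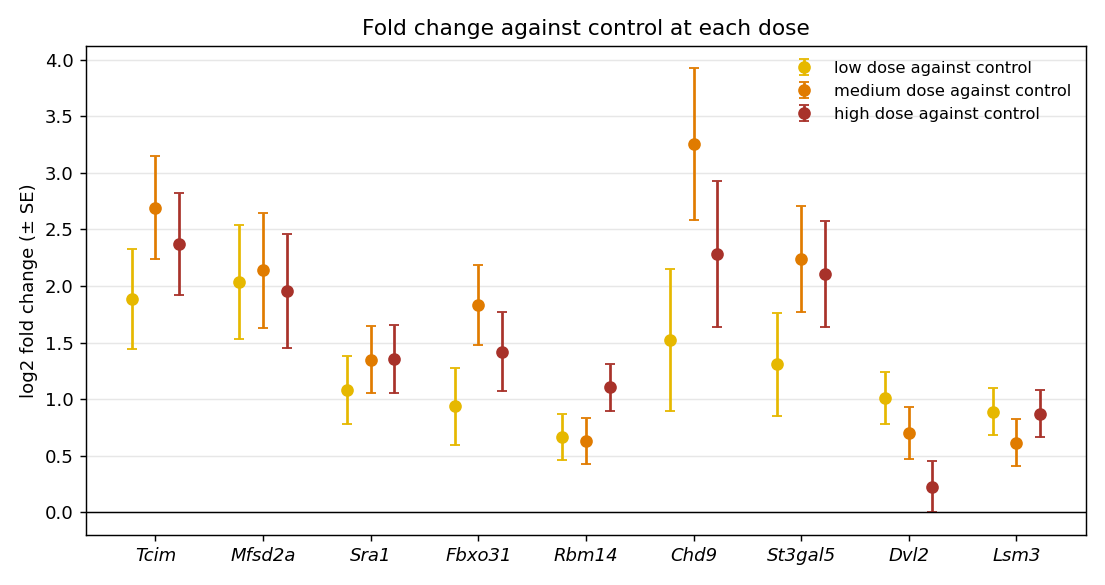
Log2 fold change against control at each dose, with its SE, for the 9 genes (3 libraries a group). Dvl2 runs from 1.01 at the low to 0.23 at the high dose, Chd9 and Fbxo31 are highest at the medium dose, and Mfsd2a lies near 2 at each dose.

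**Figure D3:**
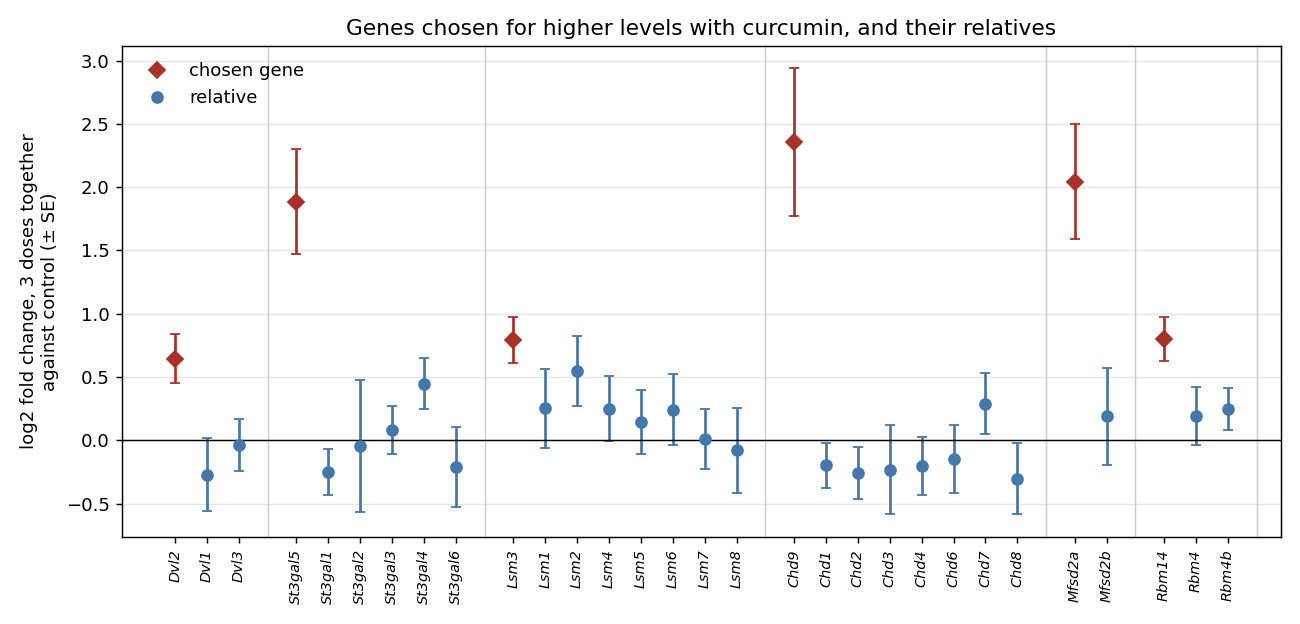
Log2 fold change of the 3 doses together against control, with its SE, for 6 of the chosen genes (diamonds) and their relatives (circles). The chosen genes were picked for this value, and the relatives lie between -0.30 and 0.55.

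Read per kilobase of exon, which allows genes to be set side by side, Mfsd2a and Tcim led in both conditions, with 11.7 and 8.15 CPM per kb in control and 48.5 and 41.7 over the curcumin libraries. Chd9 went from place 5 (2.24) in control to place 4 (12.9) with curcumin, St3gal5 from place 4 (4.87) to place 3 (18.7) and Sra1 from place 3 (5.33) to place 5 (12.8). Fbxo31 (1.93 and 5.24), Rbm14 (0.985 and 1.73), Lsm3 (0.775 and 1.35) and Dvl2 (0.754 and 1.21) filled the lowest places in both conditions. Exon length was the union over annotated transcripts, which for Chd9 is long and lowers its value.

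**Figure D4:**
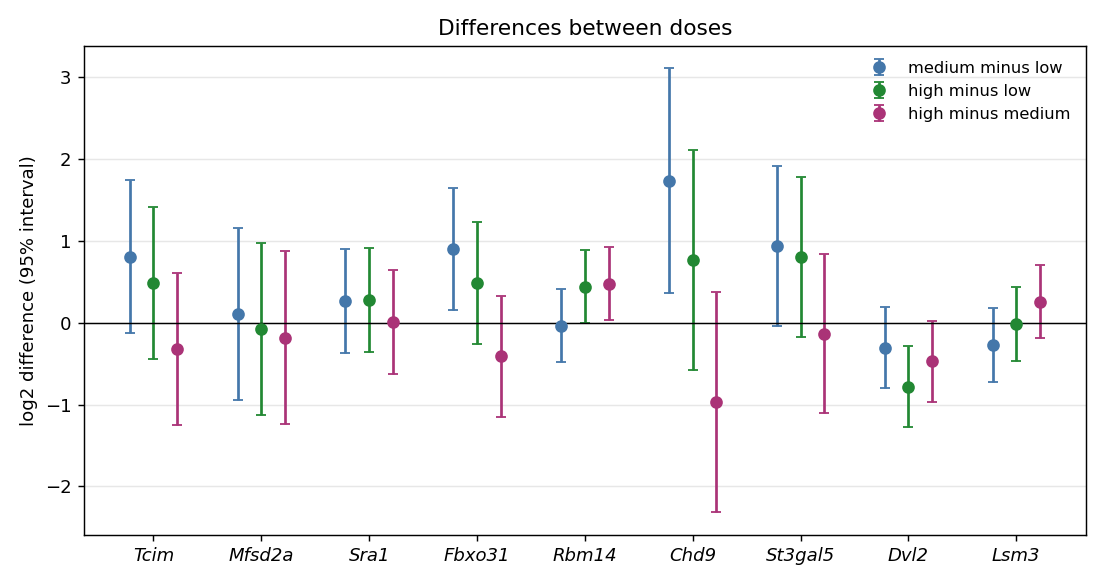
Differences between doses in log2 units with 95% intervals for the 9 genes, from the same fit. Of the 27 intervals, 4 are clear of 0, medium minus low for Chd9 and Fbxo31, high minus low for Dvl2 and high minus medium for Rbm14, and none passed after adjustment over all genes.

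Over the 12 libraries the levels of all 36 pairs of the 9 genes were positively correlated (r 0.224 to 0.944), a pattern that choosing genes higher with curcumin builds in. Deviations of each library from its group mean take that difference out, and there 22 of 36 pairs were above 0, with r from -0.797 to 0.761. Tcim and Chd9 had r = 0.733 (exact permutation within groups, p = 0.00154, adjusted over 36 pairs 0.0556) and Spearman rho = 0.874 (p = 0.000772, the smallest these arrangements can give, adjusted 0.0278). That was the 1 pair that passed by rank, and 0 passed by Pearson. Its r was 0.746 without control replicates 2 and 3, the 2 libraries whose Tcim level lay farthest from the median. Medium replicates 2 and 3 stayed in that run, so it cannot show how far they carry the correlation. With totals that left out mitochondrially encoded genes and no TMM factor, r was 0.714. Fbxo31 and Lsm3 had r = -0.797 (adjusted p = 0.111) and rho = -0.818 (adjusted p = 0.0972) in the same permutation. That r became 0.208 with those totals and no TMM factor, so its sign depends on the scaling.

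**Figure D5:**
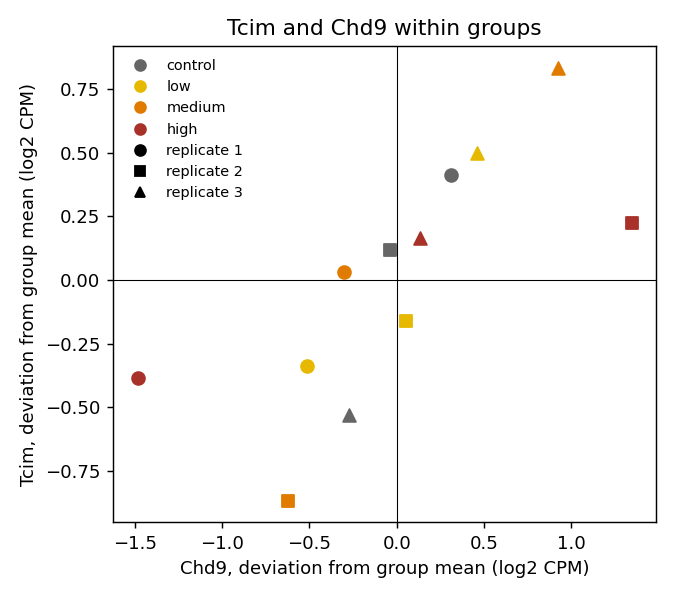
Deviation of each library from its group mean (log2 CPM) for Chd9 (x axis) and Tcim (y axis), with colour for group and symbol for replicate. Medium replicate 3 is high for both genes and medium replicate 2 low for both, and r over the 12 libraries is 0.733.

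The genes most like Tcim over the 12 libraries, among 9236 well-expressed genes with a symbol, were Ei24 (r = 0.953), Sra1 (0.944), Shld2 (0.936), Wbp1l (0.928) and Foxo1 (0.928). For Mfsd2a they were Egln2 (0.942), Lpin2 (0.936), Sra1 (0.926), Alas1 (0.918) and Arl4a (0.906). Sra1, itself chosen for the same difference, was on both lists. These r values are descriptions over 12 libraries that share the difference between control and curcumin.

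Other features of the libraries also differed between control and curcumin, some only in part of the curcumin libraries. The summed level of 7 neutrophil markers was 10.4 to 39.6 CPM in control, 6.28 to 7.71 at the low, 4.65 to 9.17 at the medium and 6.16 to 7.21 at the high dose. For this sum all controls lay above all curcumin libraries. Of single genes 202 of 16839 were so separated, among them 1 of the 6 tested neutrophil markers. Ly6g was at 0 in 10 of 12 libraries. Of the 6 tested neutrophil markers all 6 were below control (median log2 fold -1.58), 5 of them at an unadjusted p under 0.05. Of 10 Kupffer cell markers 9 were below control, with sums of 72.3 to 168.4 CPM in control against 53.8 to 69.6, 57.6 to 66.5 and 76.1 to 95.9 for the doses in turn, 5 of them at an unadjusted p under 0.05, and none was at 0 in any library. Of 15 immediate early genes, which answer stimuli within minutes, 14 were below control with a median of -1.16, 7 of them at an unadjusted p under 0.05, and their sum was 108.1 to 192.4 CPM in control, 58.2 to 88.7 at the low, 52.0 to 72.1 at the medium and 83.8 to 122.8 at the high dose. All 11 tested hepatocyte markers were above control with a median of 0.87, 1 of them at an unadjusted p under 0.05. Their sums overlapped between control and curcumin. The sums were 6564 to 13360 CPM in control, 6354 to 39350 at the low, 8118 to 29580 at the medium and 5784 to 55320 at the high dose. Only low replicate 3, medium replicate 1 and high replicates 1 and 3 exceeded the control range, the libraries of lowest mitochondrial share (30.3% to 48.3%). In the remaining curcumin libraries the sums were 5784 to 10490 CPM. The part of these differences in the levels of the 9 genes was not tested.

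The mitochondrial share, which differed most among high-dose livers, was set against each of the 9 genes in deviations from group means. Pearson's r ran from -0.555 for Lsm3 to 0.563 for Chd9, and none passed in the exact permutation within groups (1296 arrangements, smallest adjusted p 0.633 over 9 genes; for Spearman's rho 0.783). For Tcim r was 0.00414 (p = 0.986) and rho -0.042 (p = 0.891), and for Mfsd2a r was 0.492 (p = 0.154) and rho 0.42 (p = 0.152). Without high replicates 1 and 3, r was -0.165 for Chd9 and 0.0385 for Lsm3, so neither end of the range above held without them. In that run the smallest p was that of Rbm14 (r = -0.646, exact permutation p = 0.0278, adjusted 0.25), and the r farthest from 0 that of St3gal5 (r = -0.761, exact permutation p = 0.102, adjusted 0.458). With totals that left out mitochondrially encoded genes and no TMM factor, Lsm3 had r = -0.872 (exact permutation p = 0.0108, adjusted 0.0972).

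Single libraries carried part of the spread. Medium replicate 3 was the highest of the 12 for 4 of the 9 genes and high replicate 3 for 2. The lowest was control replicate 2 for 4 genes and control replicate 3 for 5, never control replicate 1. That the lowest was a control for each gene is largely fixed by how the genes were chosen.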

How the data were processed

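The authors deposited 1 table of raw gene counts, not normalized, for the 12 libraries, whose 12 columns all matched a label (0 left over). The submitters' processing notes list StringTie 2.2.1, STAR 2.7.10b and fastp 0.23.4, with genome build mm39. The counting step, its treatment of strand and of reads fitting several genes are not stated there. Ensembl IDs were named from GENCODE M21 (52073 of 56923 had a symbol), which also gave exon lengths and overlaps.

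Counts were tested with edgeR 4.0.16 in R 4.3.3: filterByExpr at a minimum count of 10 (16839 genes), TMM, quasi-likelihood fits of all 12 libraries in 1 model with 1 dispersion trend for the 4 groups, and Benjamini-Hochberg adjustment over all genes at 0.05. Intervals of fold changes are at 95%. The script was tested on simulated data. Log2 CPM used a prior count of 2, and a gene was called well expressed at a mean log2 CPM of at least 1. Correlations used deviations from group means with two-sided exact permutation within groups, and no pair of libraries of a group agreed within sampling noise (chi-square per degree of freedom 38.5 to 2010). The labels call the replicates biological without naming animals, so p-values measure the spread between these samples.

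The members, lists and tests were chosen with earlier results of these data known. Besides the 9 genes, those named are their family members and partners whatever their values, genes with overlapping exons, and the 5 genes most like Tcim and Mfsd2a by Pearson's r. Alternatives changed the scaling, filter, test (DESeq2 1.42.0, limma 3.58.1 voom with library weights), replicate block, a covariate for the mitochondrial share, and the libraries used. Added after seeing the data were the runs without the 3 libraries of lowest mitochondrial share, all alternatives for the separation count, for folds by single dose and for members' p-values among doses, and the pair correlations. Sra1 has no sequence printed here, and Tcim matched no promoter entry.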

Additional observations from a re-analysis of the deposited data

How the results depend on the processing

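Of 756 recomputed fold changes of the 9 genes over 21 alternatives, whose sign the choice of genes largely fixes, 1 reversed: Dvl2 at the high dose was -0.138 without the 3 libraries of lowest mitochondrial share. For the doses together against control, edgeR called 0 genes with other size factors, plain totals, the mitochondrial covariate or the replicate block. It also called 0 with totals that left out mitochondrially encoded genes, there with TMM kept. With no filter 3 were called, and without the 3 libraries of lowest mitochondrial share 2. limma voom called 97 (32 higher) and DESeq2 165 (80 higher), with 354 adjusted p-values not given. Leaving out 1 library at a time gave 0 to 1, the 1 without each control. Among the 3 doses limma voom called 8, DESeq2 16, the fit without the 3 libraries 6, and fits without 1 library 0 to 4 (2 without low replicate 3, 4 without high replicate 2). The count of genes above every control was 3 on plain totals and 7 to 8 without 1 library, 8 without control replicate 1 or low replicate 1 (St3gal5 joins) or high replicate 2 (Dvl2 joins). The cause of these differences was not tested. Same-numbered libraries of different groups correlated from -0.496 to 0.651 (median -0.0671), and other-numbered ones from -0.708 to 0.583 (median 0.00892). Of 12 libraries 6 correlated best with their own number. The replicate block called 0 genes in either comparison, as did the fit without it. Whether replicate numbers pair the libraries is not settled by these values. The lowest count behind a value of the 9 genes was 86.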

Other observations

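Marker lists of other liver cells gave these values beside those of the 9 genes. Of 10 stellate cell and fibroblast markers 8 were above control, with a median log2 fold of 0.37 for the doses together and of 1.03 at the high dose. Their summed level was 259, 51.6 and 153 CPM in high replicates 1 to 3, against 55.2 to 71.5 CPM in control. High replicates 1 and 3 had the lowest mitochondrial shares of the 12 libraries, and high replicate 2 lay below every control. Of 7 sinusoidal endothelial markers 5 were above control (median 0.40). Of 5 tested cholangiocyte markers 2 were above control, with a median of -0.07 for the doses together and 0.84 at the high dose. The sum of the listed cholangiocyte markers was 29.4, 6.11 and 30.1 CPM in high replicates 1 to 3, against 10.3 to 13.0 in control. Of 7 B and plasma cell markers 5 were below control (median -0.76), 4 of them at an unadjusted p under 0.05. All 6 erythroid markers were below control (median -1.33), 3 of them at an unadjusted p under 0.05, but their sums overlapped. These sums were 174.8 to 1358 CPM in control, 238.2 to 380.5 at the low, 119.5 to 1396 at the medium and 156.1 to 201.6 at the high dose. Of 8 recruited macrophage markers 4 were above control (median -0.07), and of 7 T and NK cell markers 3 (median -0.45). No gene of these lists passed edgeR's adjusted threshold.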
